A study of Arabidopsis thaliana with 8 samples.

Results

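Nuclei carrying transcripts of mitosis genes were compared with nuclei carrying transcripts of DNA replication genes in globular embryos of Arabidopsis thaliana. A nucleus was placed on the mitotic side when at least 3 of 5 mitosis genes (TPX2, MAD2, CDC20.1, MAP65-3 and AT3G52110) and at most 1 of 7 replication genes had at least 1 count. It was placed on the replicating side when at least 3 of the 7 replication genes (TSO2, CYCA3;2, RPA70B, RPA70D, BRCA2A, AT5G43530 and AT2G41450) and at most 1 of the 5 mitosis genes had at least 1 count. The nuclei were thus selected on measured counts of these 12 genes, which were left out of every test. The limits for keeping a well were 100000 counts and 1000 features, which 534 nuclei met, and of these 72 were mitotic and 53 were replicating. The sides therefore rest on transcripts and not on a measurement of DNA content, spindle or label uptake. The 744 wells came from 8 plates of single nuclei. The paper, which also kept 534 nuclei at first, went on to exclude clusters dominated by seed-coat-like nuclei and a cluster of poor quality. Those steps were not taken here, so either side may hold nuclei from outside the embryo.

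All plates are labelled as globular embryos of wild-type Col-0, and the labels name the reporters pWOX2::H2B-GFP and pWOX2::tdTomato-RCI2b (also given as pWOX2::NLS-GFP), in which the WOX2 promoter drives a green fluorescent histone and a red fluorescent membrane protein. Seeds were collected 72 h after pollination, and fixed nuclei were sorted on DNA stain and green fluorescence by a gate that took both 2C and 4C nuclei (an unreplicated and a doubled genome). Seeds were pooled and nuclei were not tied to single embryos, no treatment or mutant was involved, and the plate was the only replicate. Each nucleus was read by Smart-seq2, which amplifies whole transcripts without keeping the strand, and reads were assigned to genes by the authors. The labels do not tie plates to separate plantings, so that p-values measure the spread between plates, which may be technical.

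A plant cell copies its genome in S phase and then divides it in M phase. Replication starts at origins loaded with the MCM helicase, and many of the genes that S phase needs are switched on by E2F transcription factors once the retinoblastoma protein RBR1 lets go of them. Genes for division are switched on later by 3-repeat MYB factors, which bind the MSA element, and plant cells then build a phragmoplast, the microtubule array that lays down the new wall. B-type cyclins and CDKB kinases belong to this late wave. The cells of globular embryos divide actively.

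The rule used measured counts, so the values of its genes describe the choice of nuclei and are not results. Over all plates, 13.5% of retained nuclei were mitotic (exact 95% binomial interval 10.7% to 16.7%) and 9.93% were replicating (7.52% to 12.8%). Only 3 nuclei had 3 or more genes of both lists, 235 had rule genes but belonged to neither side, and 171 had no rule gene. The share of mitotic nuclei ran from 7.55% on plate 6 to 20.55% on plate 3, and that of replicating nuclei from 5.66% on plate 6 to 16.95% on plate 8. TPX2, which activates the Aurora kinase on the spindle, was detected in 60 of the 72 mitotic nuclei and in 0 of the 53 replicating nuclei. MAD2, a spindle checkpoint protein, was detected in 60 and in 3 nuclei. TSO2, a small subunit of ribonucleotide reductase, was detected in 33 replicating and 4 mitotic nuclei, and the S-phase cyclin CYCA3;2 in 28 and 4. Just inside the limits, 30 nuclei held 3 mitosis genes (median summed level of the list 695.6 CPM, that is counts scaled to the same total in every library) and 18 held 3 replication genes (615.3 CPM). Just outside, 31 nuclei held 2 mitosis genes (379.7 CPM) and 26 held 2 replication genes (368.3 CPM). The intervals of these shares cover the sampling of nuclei pooled over plates, not the spread between plates. Intervals of count ratios treat reads as independent, although reads are amplified copies without molecular identifiers.

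**Figure D1:**
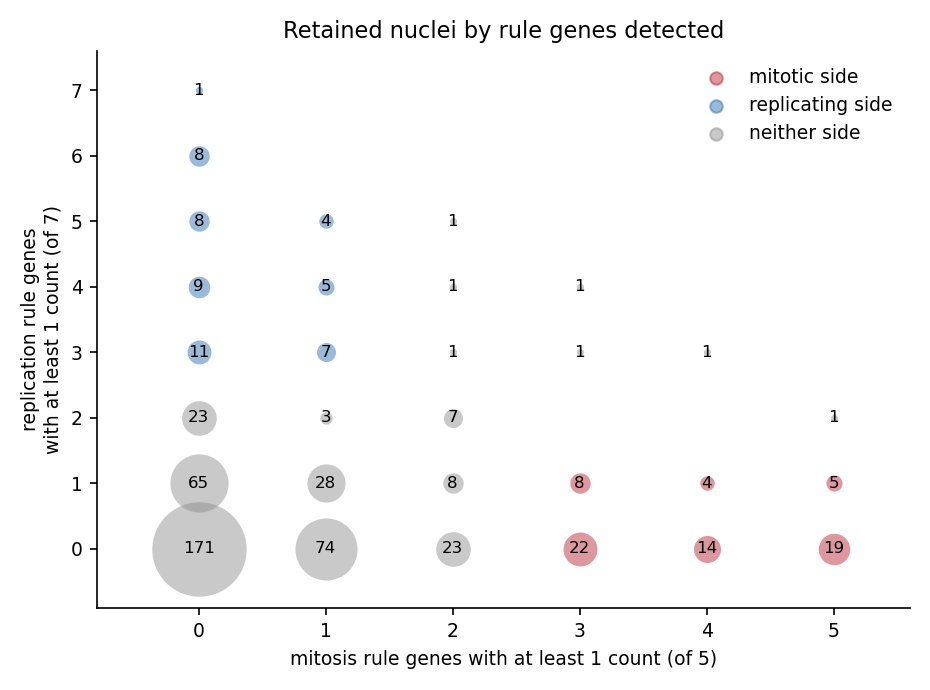
Number of retained nuclei at each combination of mitosis rule genes (x axis, of 5) and replication rule genes (y axis, of 7) with at least 1 count; the area of a circle and the number in it give the nuclei. Red circles (72 nuclei) form the mitotic side, blue circles (53 nuclei) the replicating side, and grey circles belong to neither, with 171 nuclei at the origin.

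Depth did not pass a test of difference between the sides. The median number of counts per nucleus on a plate had a median of 522200 over plates on the mitotic side (lowest 287600, highest 992300) and of 656400 on the replicating side (315200 to 869000). The mean difference was -62930 counts with an SD of 255200 over the 8 plates, and it did not pass a two-sided exact permutation test (p = 0.5). With every nucleus thinned to 100000 counts, mitotic nuclei had 2521 ± 899.6 detected genes (SD, n = 8 plates) and replicating nuclei 2585 ± 792.2, and this difference did not pass either (two-sided exact permutation test, p = 0.594). Counts summed over the nuclei of a plate ran from 2207199 to 9266475 on the mitotic side and from 1998544 to 7363753 on the replicating side.

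Transcripts of the organelles took a larger share of the counts in mitotic nuclei. Organelle genes made up a median of 8.29% of counts on the mitotic side (lowest plate 5.82%, highest 15.2%) and 5.58% on the replicating side (4.44% to 14.1%). The share was higher in mitotic nuclei on 8 of 8 plates, by 2.23 ± 2.26 percentage points (SD, n = 8; two-sided exact permutation test, p = 0.00781, the smallest that 8 plates allow). Mitochondrial genes gave most of it, with 6.53 ± 3.35% against 5.00 ± 2.98% and the same direction on 8 plates, whereas chloroplast genes stood at 2.10 ± 0.541% against 2.01 ± 0.499%. The call was lost when sides needed 4 of their own genes (exact permutation p = 0.0781, 7 plates) and when the rule was applied to thinned counts (exact permutation p = 0.156).

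Markers of embryonic cell types and of the surrounding seed were present on both sides, and none of the 24 marker genes that could be tested passed the test. With thinned counts, at least 2 of 5 protoderm (outer layer) markers were detected in 77.8% of mitotic and 73.6% of replicating nuclei. For 7 vascular markers the shares were 48.6% and 41.5%, for 5 markers of the quiescent center and columella 26.4% and 39.6%, and for 3 suspensor markers 8.33% and 13.2%. Seed coat markers, which belong to maternal tissue, reached 2 or more of 10 in 76.4% and 77.4% of nuclei, with summed levels per plate of 147.0 to 6699 CPM and 883.0 to 3402 CPM. Endosperm markers reached 2 or more of 7 in 5.56% and 3.77%, with IKU2 at 0 on both sides. No nucleus of either side held 2 of the 5 shoot meristem markers, and CUC1 was at 0 on both sides. No nucleus was left out for maternal transcripts in the main test. The fit without the retained nuclei richest in seed coat reads (10% of them) called 183 genes, of which 180 were among the genes called with all nuclei. The reporter transcript sGFP was counted in 13 mitotic (18.1%) and 8 replicating nuclei (15.1%).

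To find which other genes differed between the sides, counts of all nuclei of a side were summed by plate and 8343 nuclear genes, without the 12 rule genes, were tested with plate as a block. In total, 194 genes passed at an adjusted p under 0.05 (2.33% of those tested, edgeR quasi-likelihood test with Benjamini-Hochberg adjustment). Of these, 132 genes (1.58%) were higher in mitotic nuclei and 62 (0.743%) in replicating nuclei. The fit without the plate block called 106 genes, 83 higher in mitotic and 23 higher in replicating nuclei. DESeq2 called 881 (537 and 344), and limma on the mean log2(CPM + 1) of nuclei called 303 (163 and 140). Without nuclei of over 10% organelle counts, an alternative chosen after the data were seen that left 42 mitotic and 35 replicating nuclei on 7 plates, 103 genes passed (65 and 38), of which 97 were among the 194. Without plate 2, 40 genes were higher in replicating nuclei. Differences are given below as mitotic minus replicating. The mitotic genes were higher on all 8 plates in 107 cases and on 7 plates in 21, and the replicating genes in 44 and 15 cases. Plate sums of the sides did not overlap for 81 of the 132 genes and for 17 of the 62. Over all genes tested, such separation occurred for 1.01% with the mitotic side above and for 0.24% with the replicating side above.

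Detection differed along with level. The genes were called in these same nuclei, so a gap in detection follows from their selection and describes the calls. A typical mitotic gene was detected in 48.6% of mitotic nuclei at equal depth, and in 3.77% of replicating nuclei (medians over the 132 genes). A typical replicating gene was detected in 50.9% of replicating and 6.25% of mitotic nuclei (medians over the 62 genes). In the 171 nuclei with no rule gene, the medians were 2.63% for the mitotic genes and 10.8% for the replicating genes. Because so many plate sums were 0 on the lower side, fitted log2 differences were large (0.62 to 13.6 for mitotic genes, 3.18 to 12.3 in size for replicating genes) and depend on the prior count of the fit. The ratio of summed counts is therefore given beside them. Its log2 had a median of 5.45 over the mitotic genes and -4.38 over the replicating genes, with counts under 3 set to 3.

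**Figure D2:**
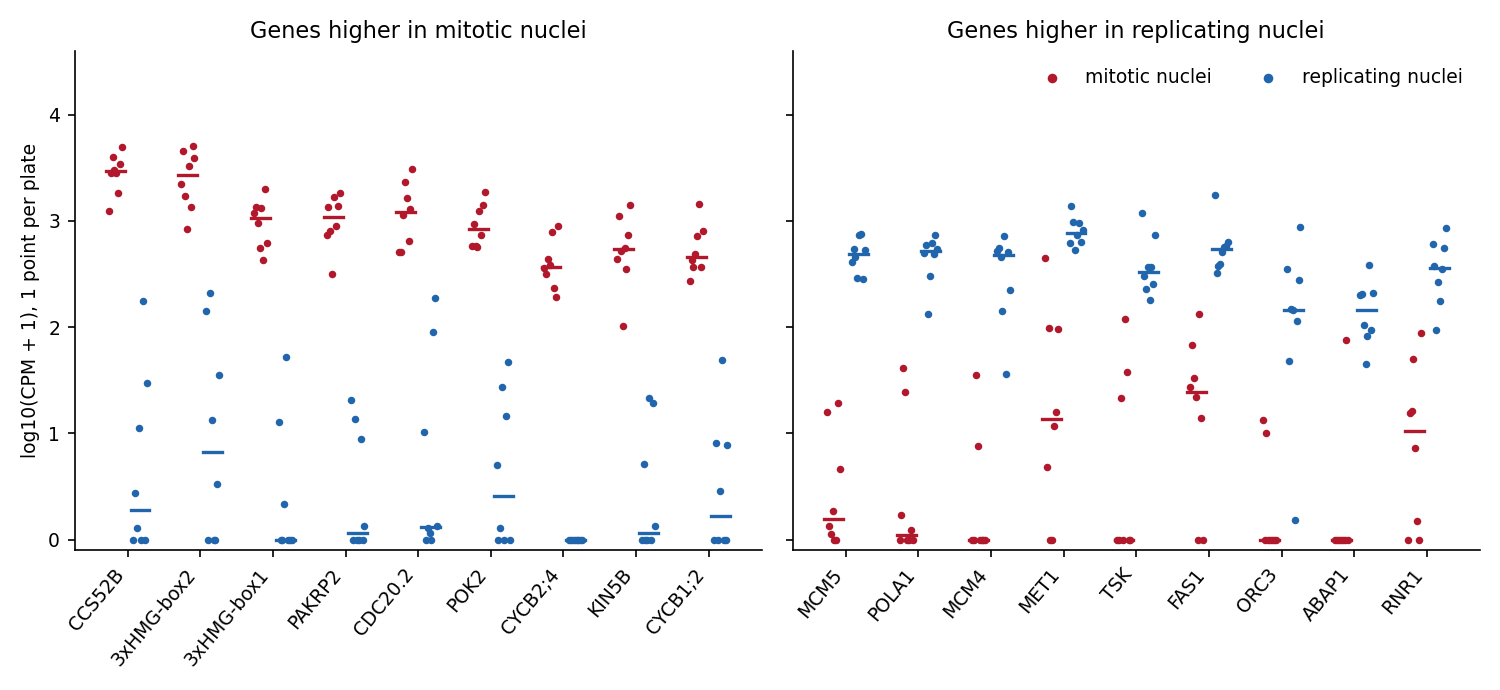
Level of named genes in each plate as log10(CPM + 1) on the y axis, 1 point per plate (8 per side) and a line at the median; red points are mitotic and blue points replicating nuclei. The 9 genes on the left lie higher in every mitotic than in any replicating plate. Of the 9 on the right, 7 lie higher in every replicating than in any mitotic plate, and ORC3 and ABAP1 overlap.

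CCS52B and MYB3R4 were the called genes of the list that holds regulators of the anaphase-promoting complex and MYB3R factors, and both were higher in mitotic nuclei. CCS52B, an activator of this complex, had a lowest, median and highest plate level of 1241, 2927 and 4910 CPM in mitotic nuclei and of 0, 1.04 and 174.7 CPM in replicating nuclei. All mitotic plates lay above all replicating plates, and the gene had the lowest p of all (log2 difference 10.75 ± 0.69 SE, edgeR adjusted p = 6.52e-34, summed counts 163.2-fold higher, and 472.6-fold without plate 6, which held the highest replicating level), although other annotated genes overlap it on the opposite strand. Here and below, the SE of a log2 difference is its size divided by the square root of the F statistic of the test. It is therefore no measure of precision separate from the p-value. CDC20.2, an activator of the same complex from the spindle list, ranged from 507.4 to 3047 CPM (median 1211) against 0 to 188.2 CPM (median 0.321), also without overlap (adjusted p = 1.32e-16). CDC20.2 is a near copy of the rule gene CDC20.1 and lies 619 bases from it, so that its reads may be shared and its value is uncertain. MYB3R4, which activates division genes, passed (99.1 ± 94.7 against 7.46 ± 21.1 CPM, SD, n = 8, edgeR adjusted p = 0.0198). In the list of complex regulators and MYB3R genes, which does not hold CDC20.2, 4 of 9 genes were tested and 2 passed, both higher in mitotic nuclei. The repressor-type MYB3R3 stood at 35.8 and 13.7 CPM and MYB3R1 at 111.7 and 61.1 CPM, and neither passed. OSD1, an inhibitor of the complex, fell under the count filter with 1016 counts in 12 mitotic nuclei and 0 counts on the replicating side. Other members under the filter ran the other way, with CCS52A2, an activator, at 39 counts in 1 mitotic and 935 counts in 12 replicating nuclei, and UVI4, an inhibitor, at 460 counts in 3 and 836 counts in 8. The activator CCS52A1 had 192 counts in 4 and 47 counts in 5 nuclei, and MYB3R5 997 counts in 11 and 60 counts in 2. The call was lost for MYB3R4 without plate 1, 2, 4 or 7 (0.0662 to 0.0964) (edgeR adjusted p in brackets). Further settings that ended it were no plate block for MYB3R4 (0.974), organelle-rich nuclei left out for MYB3R4 (0.379) and at least 4 genes of the own side for MYB3R4 (0.135).

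The mitotic cyclins that passed the test were all of the B type. Of 18 mitotic cyclin and CDKB genes, 13 were tested, 5 passed, and all 5 were higher in mitotic nuclei. The median log2 ratio of summed counts was 4.01 over the 13 genes, against -0.015 over all genes tested. CYCB2;4 ranged from 192.2 to 889.4 CPM (median 370.0) in mitotic nuclei (edgeR adjusted p = 3.24e-14). It had 13492 counts there and 0 counts on the replicating side, a 3338-fold ratio against a floor of 3 counts over the side. The floor is a convention and no lower bound, because amplified reads are not independent. CYCB1;4 was likewise at 0 on the replicating side and at 49.7 to 422.7 CPM on the mitotic side, 1722-fold higher against the same floor. CYCB1;2 ranged from 271.1 to 1446 CPM against 0 to 47.7 CPM, a 90.2-fold ratio of summed counts, which was 253.4-fold without plate 5 (edgeR adjusted p = 9.80e-11). CYCB1;3 had 8395 counts against 1, with plate levels of 4.10 to 503.0 CPM. CYCB2;2 had 6195 counts against 3. CYCB1;1, often used as a division reporter, had 206.9 against 36.7 CPM and did not pass (adjusted p = 0.16). The kinases CDKB2;1 (156.0 against 36.7 CPM, adjusted p = 0.0614) and CDKB1;2 (92.9 against 9.18 CPM, adjusted p = 0.101) missed the threshold as well. CYCA2;3 stood at 30.8 and 23.2 CPM. CYCB2;1 and CYCA1;1 were under the filter on low counts, the former with 1677 counts in 25 mitotic nuclei and 0 counts on the replicating side, the latter with 6663 counts in 31 and 321 counts in 1 nucleus. CYCA2;1 and CYCA2;2 (694 and 301 counts, mitotic side only) and CDKB1;1 (715 against 249 counts) were under it too. Of the called cyclins, CYCB1;3 fell under the filter with thinned counts and CYCB1;4 with equal numbers of nuclei.

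Genes for the phragmoplast and the new cell plate passed in most cases. Of 13 genes on this list, 12 were in the tables, 11 were tested and 9 passed, all higher in mitotic nuclei (median log2 ratio of summed counts 5.96). PAKRP2, a phragmoplast kinesin, ranged from 318.7 to 1811 CPM (median 1116) against 0 to 19.5 CPM (median 0.171), and was detected in 80.6% of mitotic and 5.66% of replicating nuclei at equal depth (log2 difference 10.26 ± 0.97 SE, edgeR adjusted p = 9.03e-19). POK2, a kinesin that orients the phragmoplast, ranged from 563.3 to 1880 CPM against 0 to 45.6 CPM (adjusted p = 3.24e-14). KNOLLE (KN), the syntaxin that fuses vesicles into the cell plate, ranged from 45.7 to 1055 CPM (median 318.1) against 0 to 6.15 CPM, with 268.9-fold higher summed counts, which became 1978-fold without plate 1 (adjusted p = 1.44e-09). HINKEL (HIK), a kinesin that expands the phragmoplast, had 8734 counts against 0 and was at least 2161-fold higher. In each of these genes no replicating plate reached the lowest mitotic plate. TAN1, POK1, PAKRP1, TES and PAKRP1L completed the 9. MAP65-1 (152.6 and 267.4 CPM) and RUK (137.6 and 11.9 CPM) did not pass. HIK fell under the count filter, and was not tested, with thinned counts or without organelle-rich nuclei. Calls were lost for TES without plate 7 (0.0813) and PAKRP1L without plate 2, 4, 5 or 7 (0.0751 to 0.367) (edgeR adjusted p in brackets). They were also lost with no plate block for PAKRP1L (0.403), organelle-rich nuclei left out for TES (0.253), at least 4 genes of the own side for TES and PAKRP1L (0.0531 to 0.487), classes on thinned counts for TES (0.932), no filter on low counts for PAKRP1L (0.0794), equal numbers of nuclei for PAKRP1L (0.341), seed-coat-rich nuclei left out for PAKRP1L (0.0604), no TMM for PAKRP1L (0.0514) and stricter limits on nuclei for PAKRP1L (0.0559).

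Of 25 spindle, kinetochore and checkpoint genes, 21 were tested and 8 passed, all higher in mitotic nuclei (median log2 ratio of summed counts 1.82). KIN5B, a motor of the kinesin-5 family that pushes spindle poles apart, ranged from 101.4 to 1403 CPM (median 539.2) against 0 to 20.8 CPM (edgeR adjusted p = 2.13e-12). ATK5, a minus-end kinesin of the spindle, ranged from 139.8 to 1023 CPM against 0 to 11.0 CPM (adjusted p = 5.76e-10). PANS1, which protects sister cohesion, ranged from 0 to 826.6 CPM against 0 to 7.42 CPM (adjusted p = 1.77e-05), and the sides overlapped at 0. ATK1, the checkpoint kinase homolog BUBR1 and the Aurora kinases AUR1 and AUR2 also passed, with AUR1 at 2905 counts against 0. The kinetochore genes CENPC (120.4 and 270.0 CPM), HTR12 (the centromeric histone H3, 41.3 and 192.1 CPM), MIS12 (70.4 and 78.0 CPM) and NUF2 (35.0 and 134.4 CPM) had negative differences that did not pass (adjusted p = 1.0 each). The call of BUBR1 was lost without plate 7 (0.151) (edgeR adjusted p in brackets). Settings that ended a call were no plate block for ATK1, BUBR1 and AUR2 (0.226 to 0.574) and organelle-rich nuclei left out for ATK1 (0.257). Under other settings genes fell below the count filter and were not tested. Without organelle-rich nuclei these were ATK5, PANS1, BUBR1, AUR1 and AUR2. With at least 4 genes of the own side they were PANS1, AUR1 and AUR2. AUR1 and PANS1 also dropped out with thinned counts, and PANS1 and AUR2 with equal numbers of nuclei. AUR1 and AUR2 did so with stricter limits or with classes on thinned counts. PANS1 did so without plate 4 and AUR2 without plate 7.

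Among chromatin genes of mitosis, both 3xHMG-box genes passed and condensin genes did not. 3xHMG-box2, which binds mitotic chromosomes, ranged from 831.0 to 5094 CPM (median 2746) against 0 to 209.8 CPM (median 7.41), and was detected in 88.9% and 13.2% of nuclei at equal depth (log2 difference 8.66 ± 0.70 SE, adjusted p = 4.79e-24, edgeR). 3xHMG-box1 ranged from 427.2 to 1988 CPM against 0 to 51.4 CPM (adjusted p = 6.91e-19). The condensin subunits SMC2 (146.7 and 230.0 CPM), SMC4 (288.5 and 383.9 CPM) and CAP-D2 (166.7 and 11.6 CPM, adjusted p = 0.133) did not pass, so 2 of 7 tested genes of this list were called.

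Several of the largest fitted differences fell on genes outside the lists. AT5G66230, annotated as a chalcone-flavanone isomerase family protein, had 19147 counts against 1, a ratio of 14210. Its counting interval of 2550 to 561300 treats reads as independent. Against the floor of 3 counts its ratio was 4737, and 2561 without plate 1. AT1G49870, a myosin heavy chain-like protein, had 14310 counts against 1, and AT1G72250, a kinesin, 15603 against 1. AT4G01730, a DHHC-type zinc finger protein, had 10427 counts against 0 (2580-fold against the floor of 3 counts). With the same floor, the receptor-like kinase MRLK had 7607 against 0 (1882-fold). The uncharacterized AT5G37247 had 7399 against 0 (1831-fold, and 1211-fold without plate 1). AT1G78865 is annotated as a non-coding RNA and had 20176 counts against 7. All of these were higher on 8 of 8 plates without overlap. AT5G66230, AT1G72250 and AT1G78865 overlap another annotated gene, and the libraries do not keep the strand, so reads of overlapping genes cannot be told apart. Among list genes named here, CCS52B, KIN5B, ATK5, POK2, KN, both 3xHMG-box genes, POLA1, ETG1 and POL2A overlap another gene too. Such an overlap holds for 44 of the 132 mitotic and 15 of the 62 replicating genes. The share over all genes tested is not given, so these counts do not show a trait of the called genes.

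Genes of the cell wall, membrane and microtubules were also among the called, named here after their values were seen. CSLD5, a cellulose synthase-like protein active at the cell plate, ranged from 280.5 to 1163 CPM in mitotic and from 0 to 39 CPM in replicating nuclei. TOPII, the topoisomerase that untangles sister DNA, ranged from 364.7 to 2285 CPM against 0 to 323.1 CPM. The receptor-like kinase IMK2 ranged from 809.4 to 7950 CPM against 0 to 119.0 CPM. In none of these 3 did the sides overlap. The tubulin gene TUB7, which overlaps an antisense gene, ranged from 490.7 to 2062 CPM against 2.85 to 306.7 CPM. ENODL14, an early nodulin-like protein, ranged from 136.6 to 1084 CPM and did not exceed 0.636 CPM in replicating nuclei.

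Words in the gene annotation, searched after the calls were known and given without a test, were counted over all genes tested, genes of the lists above included. Of 25 tested genes whose RefSeq product or symbol contained kinesin, 11 were higher in mitotic nuclei and 1 in replicating nuclei. Of 8 genes named for TPX2, 3 were higher in mitotic nuclei, and of 7 early nodulin-like genes, which encode membrane-anchored proteins related to copper-binding proteins, 4 were. Of 69 genes named for histones, 7 were higher in replicating and 0 in mitotic nuclei, and these 7 are the core histones given below. Further words were searched, and some had calls on both sides. Of 40 genes for cyclin, 7 were higher in mitotic and 1 in replicating nuclei, and of 22 for tubulin, 2 and 1. For high mobility group the numbers were 2 and 1 of 15, and for chromatin remodeling 1 and 1 of 10. The words left out here had calls on 1 side only. Kinesins annotated only as nucleoside triphosphate hydrolases are missing from these numbers.

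Of 24 origin licensing and helicase genes, 15 were tested and 5 passed, all higher in replicating nuclei (median log2 ratio of summed counts -3.51). MCM5, a helicase subunit, ranged from 283.9 to 744.2 CPM (median 492.4) in replicating nuclei and from 0 to 18.5 CPM (median 0.606) in mitotic nuclei, with 92.5-fold higher summed counts (141.8-fold without plate 1, 160.1-fold without plate 7) and no overlap (log2 difference -8.81 ± 1.27 SE, edgeR adjusted p = 8.68e-09). MCM4 ranged from 35.3 to 716.3 CPM against 0 to 34.5 CPM, so that the lowest replicating and the highest mitotic plate nearly met (adjusted p = 6.82e-08). MCM2 ranged from 11.4 to 722.0 CPM against 0 to 18.3 CPM (adjusted p = 0.00111), and MCM6 from 111.0 to 418.2 CPM against 0 to 48.6 CPM. ORC3, a subunit of the origin recognition complex, ranged from 0.519 to 869.6 CPM against 0 to 12.3 CPM (adjusted p = 2.83e-04). MCM3, at 28.1 CPM in mitotic and 169.6 CPM in replicating nuclei, fell just short (edgeR adjusted p = 0.0761). So did MCM7, at 53.2 CPM in mitotic and 347.6 CPM in replicating nuclei (edgeR adjusted p = 0.0815). Of 9 genes under the filter, ORC6 had 6 counts in 3 mitotic and 6348 counts in 22 replicating nuclei, whereas ORC5 ran the other way with 1696 counts in 6 and 683 counts in 11 nuclei. CDT1B, a licensing factor, was the 1 tested gene of the list with a positive difference. It stood at 59.5 CPM in mitotic and 3.58 CPM in replicating nuclei and did not pass (edgeR adjusted p = 0.306). MCM2 lost its call without plate 2 (0.0685) and MCM6 without plate 1, 2, 7 or 8 (0.0523 to 0.146) (edgeR adjusted p in brackets). It was lost as well with no plate block for MCM6 (0.169). ORC3 fell under the count filter, and was not tested, with thinned counts or with at least 4 genes of the own side.

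Of 28 fork genes, 23 were tested and 7 passed, all higher in replicating nuclei (median log2 ratio of summed counts -2.74). POLA1, the catalytic subunit of the primer-making polymerase alpha, ranged from 132.5 to 731.2 CPM (median 521.6) against 0 to 40.3 CPM (median 0.117), and was detected in 81.1% of replicating nuclei, 11.1% of mitotic nuclei and 26.9% of nuclei with no rule gene (log2 difference -10.22 ± 1.49 SE, edgeR adjusted p = 1.30e-08). TSK (TONSOKU), which binds newly made histones behind the fork, ranged from 179.5 to 1194 CPM against 0 to 118.0 CPM (adjusted p = 6.06e-06). POL2A, the catalytic subunit of the leading-strand polymerase epsilon, ranged from 461.5 to 1498 CPM (median 666.8) against 0 to 1559 CPM (median 76.9), with overlapping sides and a 2.55-fold ratio of summed counts that was 7.77-fold without plate 1 (adjusted p = 0.00154). POLD3 of polymerase delta ranged from 74.2 to 596.8 CPM against 0 to 206.8 CPM (adjusted p = 0.00326). ETG1, an E2F target that helps unload the helicase, ranged from 16.5 to 164.0 CPM against 0 to 10.3 CPM. PCNA2, the sliding clamp, passed (194.4 ± 139.1 CPM against 18.2 ± 35.7 CPM, SD over plates), while PCNA1 stood at 176.0 against 16.0 CPM and did not (adjusted p = 0.564). TIM was the seventh. POLA3, the primase subunit, was under the filter with 1 count in 1 mitotic nucleus and 4494 counts in 27 replicating nuclei. RFC2, of the clamp loader, ran the other way with 406 counts in 9 mitotic and 143 counts in 3 replicating nuclei. POLD3 lost its call without plate 8 (0.0522) and TIM without plate 2 or 6 (0.0525 to 0.166) (edgeR adjusted p in brackets). Calls also ended with no plate block for TSK, POL2A, POLD3, ETG1, PCNA2 and TIM (0.0578 to 1), organelle-rich nuclei left out for POL2A and PCNA2 (0.0977 to 0.385) and at least 4 genes of the own side for POLD3 and ETG1 (0.0544 to 0.62). TIM fell under the count filter, and was not tested, without plate 4 or without organelle-rich nuclei. The same held for TIM with at least 4 genes of the own side and with classes on thinned counts.

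Of the genes for nucleotide supply 1 passed, and of those for assembly of the copied chromatin 3. RNR1, the large subunit of ribonucleotide reductase, ranged from 93.2 to 858.3 CPM (median 361.4) against 0 to 87.9 CPM (median 10.4), with no overlap (log2 difference -5.53 ± 1.23 SE, edgeR adjusted p = 8.16e-04). It was the 1 called gene of 4 tested, and under the filter RNR2A had 573 mitotic against 135 replicating counts, TK1B 60 against 0 and THY-2 614 against 456. MET1, which copies CG methylation onto the new strand, ranged from 532.5 to 1371 CPM (median 772.9) against 0 to 445.8 CPM (median 12.8), an 8.32-fold ratio without overlap, which was 22.3-fold without plate 1, where the mitotic level was highest (adjusted p = 2.08e-07). FAS1, the large subunit of chromatin assembly factor 1, ranged from 320.6 to 1752 CPM against 0 to 132.9 CPM (adjusted p = 2.04e-05), and its partner FAS2 from 2.08 to 588.8 CPM against 0 to 98.4 CPM (adjusted p = 0.00438). These 3 were the called genes among 8 tested. The third subunit, MSI1, which serves several complexes, stood at 29.6 CPM in replicating and 45.5 CPM in mitotic nuclei, and DDM1, a remodeler needed for methylation, at 165.7 and 70.9 CPM, and neither passed. The test no longer passed for FAS2 without plate 8 (0.116) (edgeR adjusted p in brackets). It did not pass either with no plate block for MET1 and FAS2 (0.0627 to 0.546). FAS2 fell under the count filter, and was not tested, without plate 7, with thinned counts or with at least 4 genes of the own side.

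Core histones that passed the test were all higher in replicating nuclei. Of 33 core and linker histone genes, 28 were tested, 27 had a negative difference and 7 passed (median log2 ratio of summed counts -1.89). HTR13 and HTR9, both encoding the replication-dependent histone H3.1, ranged from 2.28 to 1047 CPM against 0 to 71.0 CPM (edgeR adjusted p = 0.00104) and from 29.1 to 792.3 CPM against 0 to 165.0 CPM (adjusted p = 0.00856). HTB2, an H2B gene, ranged from 44.4 to 1360 CPM against 0 to 164.9 CPM (adjusted p = 0.0038), and HTA10, an H2A gene, from 74.0 to 1738 CPM against 0 to 291.5 CPM (adjusted p = 0.00835). The H4 gene AT3G46320 and the H2A genes HTA6 and HTA2 also passed. In all 7 the sides overlapped. H3.1 and H4 copies are nearly identical in sequence, so values of single copies are uncertain, and H2B reads may include the reporter's H2B. Replacement histones, which are laid down outside replication, gave 0 calls among 6 tested by edgeR. The H3.3 gene HTR5 stood at 470.3 CPM in mitotic and 606.9 CPM in replicating nuclei, while the H2A.Z genes HTA8 (44.0 CPM in mitotic against 322.0 CPM in replicating nuclei, adjusted p = 0.181) and HTA11 (30.7 against 199.1 CPM, adjusted p = 0.602) had negative differences that did not pass. Most of these calls depended on single plates, being lost for HTB2 without plate 1 (0.0561), HTA10 without plate 2, 6 or 8 (0.0507 to 0.162), HTR9 without plate 1, 2 or 8 (0.0635 to 0.0713), AT3G46320 without plate 1, 2, 5, 6, 7 or 8 (0.0692 to 0.167), HTA6 without plate 1, 3, 5, 6 or 7 (0.0672 to 0.18) and HTA2 without plate 2, 5, 7 or 8 (0.133 to 0.184) (edgeR adjusted p in brackets). Other settings that ended them were no plate block for HTB2, HTA10, HTR9, AT3G46320, HTA6 and HTA2 (0.0693 to 0.599), organelle-rich nuclei left out for HTA10, HTA6 and HTA2 (0.117 to 1), at least 4 genes of the own side for AT3G46320 and HTA6 (0.154 to 0.783), limma for HTA10 (0.0673), no filter on low counts for AT3G46320, HTA6 and HTA2 (0.0559 to 0.0774) and seed-coat-rich nuclei left out for HTA6 (0.505). AT3G46320 fell under the count filter, and was not tested, without organelle-rich nuclei.

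Repair genes were represented by 3 calls among 20 tested. BARD1, partner of BRCA1, ranged from 104.2 to 1258 CPM against 0 to 126.9 CPM (edgeR adjusted p = 0.00601). BRCA1 ranged from 6.51 to 673.3 CPM against 0 to 84.2 CPM (adjusted p = 0.0259), and MSH6, a mismatch repair gene, from 38.7 to 1193 CPM against 0 to 165.0 CPM (adjusted p = 0.0299). BRCA1 was detected in 0.585% of nuclei with no rule gene at equal depth, against 41.5% of replicating and 5.56% of mitotic nuclei. Under the filter, RECQI1 had 6 counts in 1 mitotic and 5280 counts in 18 replicating nuclei, whereas TEB, a repair polymerase, ran the other way with 1067 counts in 14 and 136 counts in 5 nuclei. In the list of E2F, RBR1 and G1 cyclin genes, 13 were tested and CYCA3;1 alone passed (54.98 to 940.4 CPM against 0 to 167.7 CPM, adjusted p = 0.00724). CYCA3;1 resembles the rule gene CYCA3;2, so shared reads are possible. RBR1 itself stood at 111.6 against 9.12 CPM and E2FA at 122.3 against 12.2 CPM, both without passing. Cohesin gave 0 calls among 7 tested by edgeR, with SMC3 at 793.0 ± 472.1 against 309.3 ± 139.1 CPM (adjusted p = 0.916) and SYN3 at 54.0 against 4.14 CPM (adjusted p = 0.478). None of the 10 CDK inhibitors had enough counts to be tested. All 3 repair calls were lost without plate 1, and by gene the losses were BARD1 without plate 1 (0.0827), BRCA1 without plate 1, 2, 3, 5 or 7 (0.0587 to 0.116), MSH6 without plate 1, 2, 7 or 8 (0.0713 to 0.183) and CYCA3;1 without plate 6 (0.057) (edgeR adjusted p in brackets). The repair and cyclin calls also failed with no plate block for BARD1, BRCA1, MSH6 and CYCA3;1 (0.0954 to 0.51), organelle-rich nuclei left out for MSH6 and CYCA3;1 (0.176 to 0.354), at least 4 genes of the own side for BRCA1 (0.139), no filter on low counts for BRCA1 and MSH6 (0.0509 to 0.0748), equal numbers of nuclei for MSH6 (0.107) and seed-coat-rich nuclei left out for MSH6 (0.0519).

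**Figure D3:**
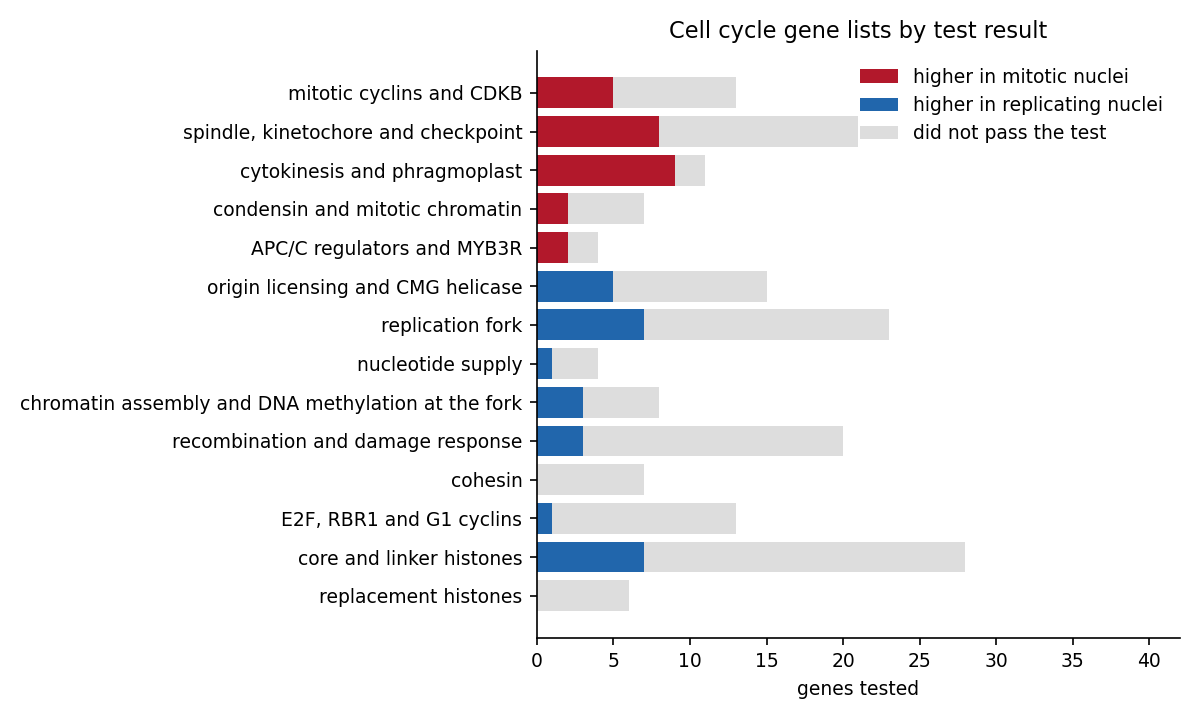
Genes of each cell cycle list that were tested (x axis, number of genes), coloured by the result of the edgeR test: red for higher in mitotic nuclei, blue for higher in replicating nuclei, grey for not passing. Called genes of the top 5 lists were all higher in mitotic nuclei, and called genes of the other lists all in replicating nuclei.

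Beyond the lists, the replicating side held chromatin proteins and enzymes of less familiar function. HMGB6, a high-mobility group protein, had the lowest p of the side and ranged from 429.4 to 2548 CPM (median 1098) against 0 to 32.6 CPM (edgeR adjusted p = 6.52e-17). AT5G63550, a DEK domain chromatin protein, ranged from 364.6 to 2142 CPM against 6.33 to 145.2 CPM. UBP21, a ubiquitin protease, had 10873 counts against 162. These 3 were picked after their values were seen. Among the 10 largest fitted differences that were shared by all 8 plates, AT1G20720, a RAD3-like helicase, had 6064 counts against 8 and was detected in 71.7% of replicating and 1.39% of mitotic nuclei. AT1G02670, an annotated nucleoside triphosphate hydrolase, ranged from 35.6 to 535.1 CPM against 0 to 8.88 CPM, and AT4G16807, a protease family member, from 49.1 to 787.5 CPM against 0 to 23.6 CPM. The armadillo protein ABAP1, a negative regulator of licensing, ranged from 43.8 to 384.6 CPM against 0 to 74.1 CPM. AT4G28310, a microtubule-associated protein, AT5G05330, an HMG-box protein, and AT3G23740, uncharacterized, followed with 206.7, 174.2 and 196.2 CPM against 1.33, 6.79 and 4.57 CPM. For AT5G05330 the replicating level was 579.5 CPM on plate 1 and the median over plates 100.4 CPM. GR1 also passed, and it lies 139 bases from AT3G52110, a rule gene of the mitotic side. AT2G41440, called on the replicating side, lies 3753 bases from the replication rule gene AT2G41450 on the same strand. The call ended for AT5G05330 without plate 1 (0.116) and AT3G23740 without plate 7 (0.0673) (edgeR adjusted p in brackets). For AT2G41440 it ended without plate 1, 2, 3, 5, 6, 7 or 8 (0.0582 to 0.275). AT2G41440 also lost it with no plate block (0.426), no filter on low counts (0.0851) or stricter limits on nuclei (0.105). The same held with at least 4 genes of the own side (0.122) and without seed-coat-rich (0.0692) or organelle-rich nuclei (0.115). Further calls that ended under other settings were those with no plate block for ABAP1, AT5G05330 and AT3G23740 (0.0573 to 0.466). So did those with organelle-rich nuclei left out for AT5G05330 (0.0726) and at least 4 genes of the own side for AT3G23740 (0.122).

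Nuclei varied within each side. At 100000 counts per nucleus, a mitotic nucleus held 14 to 110 of the 132 mitotic genes (median 69) and 1 to 21 of the 62 replicating genes (median 4). A replicating nucleus held 14 to 54 of the 62 replicating genes (median 30) and 1 to 35 of the 132 mitotic genes (median 8). The number of mitotic genes had a median of 53.5 in nuclei with 3 mitosis rule genes, 76.5 with 4 and 85 with 5. Replicating genes had a median of 28 in nuclei with 3 replication rule genes, 31 with 4, 34.5 with 5 and 41.5 with 6. These numbers describe nuclei that also chose the genes. The 3 nuclei with 3 or more rule genes of both lists held 23, 65 and 81 mitotic and 14 to 27 replicating genes.

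**Figure D4:**
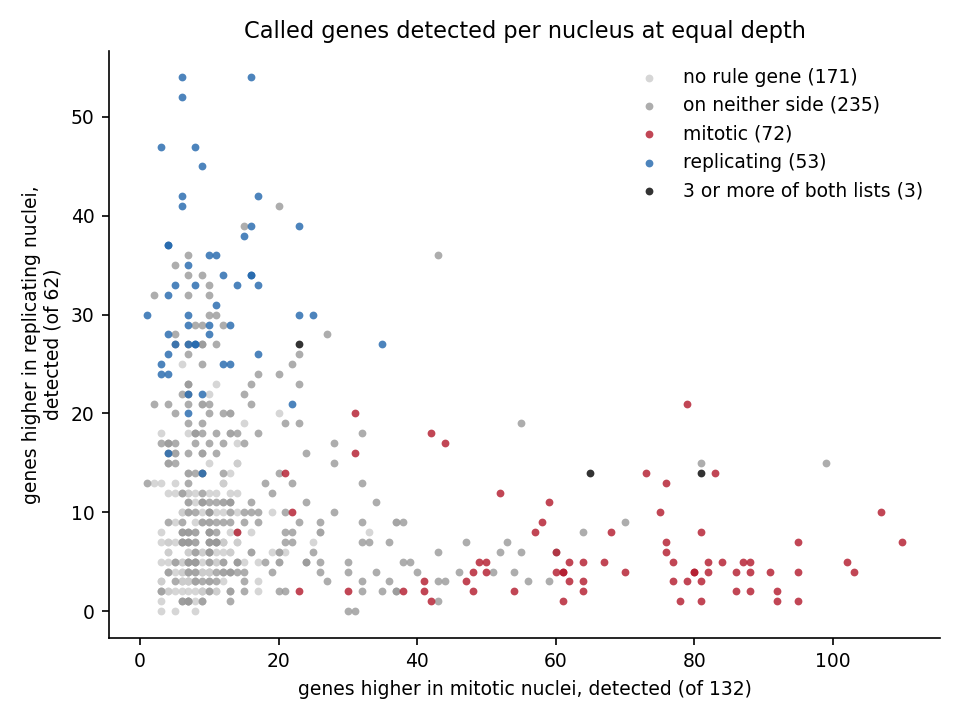
Each point is 1 of 534 nuclei thinned to 100000 counts, with the number of genes higher in mitotic nuclei that it held on the x axis (of 132) and of genes higher in replicating nuclei on the y axis (of 62). Mitotic nuclei (red, median 69 and 4) spread along the x axis and replicating nuclei (blue, median 8 and 30) along the y axis, while nuclei with no rule gene (light grey) had medians of 9 and 6.

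Nuclei just outside the limits had not been used for the calls and were compared after the data were seen. They were still grouped by counts of the same rule genes. Genes detected together with those rule genes would therefore run the same way here, and the comparison is not independent of the rule. In 31 nuclei with 2 mitosis genes and 26 with 2 replication genes (at most 1 gene of the other list in either case), 123 of the 132 mitotic genes (93.2%) had a higher mean CPM in the former, against 52.0% of all genes tested. Of the 62 replicating genes, 60 (96.8%) had a higher mean in the latter, against 48.0% of all genes tested. At equal depth the mitotic genes were detected in a median of 22.6% and 3.85% of these nuclei, and the replicating genes in 9.68% and 38.5%. In 74 nuclei with a single mitosis gene and 65 with a single replication gene, the shares were 78.8% and 85.5%, against 53.1% and 46.9% of all genes tested. The genes are not independent of each other, so these shares carry no test.

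Promoters of the called genes differed in 2 short motifs. Windows of 300 bases (250 before and 50 after the annotated gene start, RefSeq TAIR10.1) were searched on both strands for AACGG, the core of the MSA element bound by 3-repeat MYB factors, and for the E2F forms TTTCCCGC, TTTGGCGC, TTTCGCGC and TTTGCCGC. Matches of the 2 kinds can share bases at their ends. AACGG was present in 88 of 132 windows of mitotic genes (66.7%), in 22 of 62 windows of replicating genes (35.5%), in 28.8% of 8340 windows of tested genes and in 24.5% of all 37878 windows of the reference. It occurred 2 or more times in 34.9%, 14.5% and 6.60% of the first 3 sets. An E2F form was present in 1 mitotic window (0.758%), in 29 replicating windows (46.8%) and in 2.25% of windows of tested genes. The 7 called histone genes departed from the other replicating genes, with AACGG in 6 windows (2 or more in 5) and an E2F form in 2, whereas the other 55 replicating genes held AACGG in 29.1% and an E2F form in 49.1%. These are matches of letters, not binding sites, and no test was made.

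**Figure D5:**
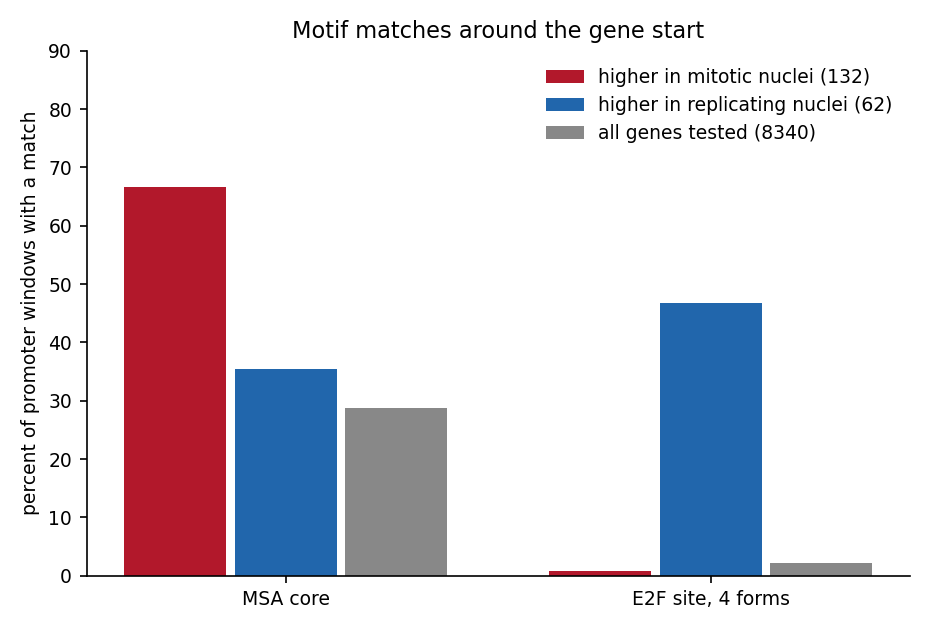
Percent of promoter windows of 300 bases (y axis) with at least 1 match to the MSA core or to 1 of 4 E2F forms, for 132 genes higher in mitotic nuclei (red), 62 genes higher in replicating nuclei (blue) and 8340 tested genes (grey). The MSA core was found in 66.7%, 35.5% and 28.8%, and an E2F form in 0.758%, 46.8% and 2.25%.

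The 120 bases directly before the start of 7 called genes are printed here because they carry these matches, which are in capitals (AACGG or its reverse complement CCGTT, and E2F forms on either strand). Each runs 5′ to 3′ on the strand of its gene, in TAIR10.1 coordinates. AT1G63100, a GRAS family transcription factor (6324 CPM in mitotic and 568.9 CPM in replicating nuclei), lies on the minus strand with its window at chr1:23402177-23402296, CYCB1;2 on the minus strand at chr5:1861704-1861823, and CYCB1;3 on the minus strand at chr3:3627274-3627393. The replicating genes are MCM5 on the minus strand at chr2:3527501-3527620, POLA1 on the plus strand at chr5:26776833-26776952, and AT3G23740 on the minus strand at chr3:8554840-8554959. HTR9, on the minus strand at chr5:3270958-3271077, shows the histone pattern.
AT1G63100: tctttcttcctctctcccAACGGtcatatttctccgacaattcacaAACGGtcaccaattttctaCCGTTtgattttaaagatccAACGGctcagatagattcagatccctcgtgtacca
CYCB1;2: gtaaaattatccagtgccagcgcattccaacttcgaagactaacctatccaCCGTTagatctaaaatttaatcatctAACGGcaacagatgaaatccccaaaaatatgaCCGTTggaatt
CYCB1;3: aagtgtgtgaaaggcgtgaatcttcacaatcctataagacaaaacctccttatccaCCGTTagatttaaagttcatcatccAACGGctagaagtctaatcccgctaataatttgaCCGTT
MCM5: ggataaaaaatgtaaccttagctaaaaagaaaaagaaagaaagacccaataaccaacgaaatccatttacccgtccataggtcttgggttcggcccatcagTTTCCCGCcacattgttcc
POLA1: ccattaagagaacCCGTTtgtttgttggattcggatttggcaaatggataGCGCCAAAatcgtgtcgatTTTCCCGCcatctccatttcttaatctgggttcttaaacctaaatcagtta
AT3G23740: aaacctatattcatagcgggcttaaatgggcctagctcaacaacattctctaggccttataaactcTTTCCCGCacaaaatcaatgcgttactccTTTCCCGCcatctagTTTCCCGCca
HTR9: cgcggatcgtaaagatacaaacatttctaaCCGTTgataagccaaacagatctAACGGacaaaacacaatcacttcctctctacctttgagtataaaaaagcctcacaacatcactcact
Both cyclins held 3 core matches within 120 bases, AT1G63100 held 4, and none of these 3 windows held an E2F form. MCM5 held 1 E2F form, POLA1 held 2 on opposite strands together with 1 MSA core match, and AT3G23740 held 3. HTR9 held 2 core matches on opposite strands and no E2F form.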

How the data were processed

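Single nuclei sorted into 8 plates were sequenced as Smart-seq2 libraries with single-end 50-base reads. Per the labels and the methods, the authors trimmed reads with cutadapt 2.6 and assigned them with kallisto (version not given in the sources used here) to TAIR10 transcripts with spike-ins and sGFP. The values deposited by the authors are whole-number counts per gene and well. How transcript estimates became whole gene counts is not given in the sources used here.

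Nuclei with at least 100000 counts and 1000 features were kept, and no doublet caller was run. Counts of nuclear genes, without the 12 rule genes, were summed per plate and side and tested with edgeR 4.0.16 in R 4.3.3 (filterByExpr, TMM, quasi-likelihood test, plate as block, Benjamini-Hochberg threshold 0.05). Single values were tested by exact sign flips over plates. Both sums of a pair came from the same plate per the labels. Deviations of paired sums correlated by -0.0195 to 0.136. The best correlation with another plate was 0.0131 to 0.0379, and it was the higher value on every plate except 3 and 4. The pairing therefore rests on the labels and not on these correlations. Alternatives used DESeq2 1.42.0, limma 3.58.1 (pseudocount 1), other filters, limits and classes, and each plate left out. The fits were tried on simulated plate sums with set differences. Those sums did not include the choice of nuclei by rule genes, so they say nothing about its effect.

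Named genes were the 10 largest fitted differences per direction (adjusted p under 0.05, at least 20 CPM on the higher side, same direction on every plate), up to 4 called genes per list by p, or the 2 lowest p where none was called, the rule genes and sGFP. Other genes are named as members of a list or after their values were seen. Members and lists were chosen with earlier results of these data known. Promoter windows and gene names came from RefSeq (TAIR10.1). P-values measure the spread between plates.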

Additional observations from a re-analysis of the deposited data

Results flagged for a closer look

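Of 28 series of 8 plate values examined, 3 had a plate far from the others, and chance alone gives such a gap in about 1 of 20 series. Mitotic nuclei of plate 4 had a median of 4592 detected genes at equal depth, whereas the other plates had 1652 to 2730. Replicating nuclei of plate 4 had an organelle share of 14.06%, against 4.44% to 8.51% on the other plates. The level of AT5G05330 in replicating nuclei was 579.5 CPM on plate 1 and 3.63 to 274.2 CPM on the others.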

How the results depend on the processing

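Of the calls that could be tested in an alternative (148 to 194 of the 194), 0 changed direction, and 50 mitotic and 10 replicating genes were called in every one. DESeq2 called 881 genes (537 higher in mitotic and 344 in replicating nuclei), and limma on mean log2(CPM + 1) 303 (163 and 140). The fit with no replicate block called 106 (83 and 23), and only 104 of the 194 genes were among them. The fit without nuclei of over 10% organelle counts, chosen after seeing the data, called 103 (65 and 38). Leaving out each plate in turn gave 145 to 190 calls, 100 to 127 of them mitotic and 40 to 64 replicating, and 110 of the 194 genes passed each time. The cause of these shifts was not tested. Calls that ended because a gene fell under the count filter are given by name for list genes only. The median log2 difference of all genes moved from 0.25 to -0.24 with equal numbers of nuclei and to 0.41 with no filter. The difference in detected genes turned to 19.43 with at least 4 genes of the own side, and ran from -125.6 to 13.43 when each plate was left out. The difference in organelle share was 2.154 points with at least 4 genes of the own side and 2.288 points with classes on thinned counts, and neither passed. Uncalled markers changed sign as follows. WOX9 stood at 0.35 with no replicate block, 0.19 with thinned nuclei and -1.667 to 0.034 when each plate was left out. WOX8 stood at 0.43 with no replicate block, 0.022 with equal numbers and -1.733 to 0.062 when each plate was left out. WOX5 stood at -0.54 with at least 4 own genes and -1.22 with equal numbers. PLT2 stood at -0.049 with no replicate block, -0.81 by limma and -4.46 with at least 4 own genes. TT4 stood at 0.77 without organelle-rich nuclei, and BAN at 0.63 by limma and 1.01 without organelle-rich nuclei. Counts at or near 0 on one side limit the size of single folds.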
